A study of Mus musculus with 4 samples.

Results

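The 34 genes described here are the enzymes of glycolysis together with genes that feed, control or respond to low oxygen, out of 32285 genes in the deposited tables. They were taken by name and not picked by a cut on their values, but earlier results of these data were known when they were chosen. They were kept apart as 14 glycolytic enzymes, 6 genes of glucose and lactate transport and flux control, 4 hypoxia-inducible factors and prolyl hydroxylases, and 10 hypoxia targets. All 34 were found in the tables. Their levels come from single-cell RNA sequencing (scRNA-seq) of mouse tibial fracture callus, in which each captured mRNA molecule carries a unique molecular identifier (UMI) and each droplet a cell barcode.

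The 4 groups compared were all of wild-type C57BL/6J mice 3 months old. K/BxN serum was given to RA mice, and its antibodies to glucose-6-phosphate isomerase (the product of *Gpi1*, 1 of the 34 genes) bring on an inflammatory arthritis. Control mice were given vehicle. Callus was taken at 4 or 7 days post fracture (dpf). Each group was 1 library made from 1 pool of calluses, scraped along the periosteal surface and digested, so it holds the cells that come free under collagenase. As transferred serum carries the disease, the model does not include the immune response that makes the antibodies, and the pool size is given differently in the labels and the methods. Because there was 1 library per group, no test between groups was possible, and effects of condition, pool and library cannot be told apart. Each interval given is at the 95% level and covers counting error only.

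Glycolysis splits glucose into pyruvate in the cytosol and yields ATP without oxygen, and lactate dehydrogenase and the lactate carriers then remove the product. When oxygen is short, the prolyl hydroxylases *Egln1* and *Egln3* no longer mark the hypoxia-inducible factor subunits HIF-1α (*Hif1a*) and HIF-2α (*Epas1*) for destruction, and the factors bind short DNA elements with the core ACGTG or GCGTG beside their targets, which include most enzymes of glycolysis. A fracture tears blood vessels, and callus, above all its cartilage, is known as a tissue of low oxygen and high glycolysis. The factors are controlled mainly as proteins, so that their mRNA does not report their activity.

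RefSeq (build GRCm38.p6) gave a promoter window from 250 bases before to 50 after the start for 32 of the 34 genes, with *Epas1* and *Ndrg1* not in that table. On either strand, ACGTG or GCGTG was found in the first listed window of 27 of the 32, or 84.38%, against 43.8% of all 27025 genes. The match was present in 9 of 14 glycolytic enzymes, 6 of 6 transport and flux genes, 3 of 3 factors and hydroxylases and 9 of 9 hypoxia targets. The count for the enzymes depends on the window, as *Hk1*, *Aldoa* and *Pkm* had no match in the first but had matches in later listed windows. These genes were listed for their known place in the hypoxia response, so the share describes the list. A match is a run of letters and not a bound site, and CACGTG holds a match on both strands.

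The 250 bases before the start are shown for 3 genes that were lower in RA mesenchymal cells at 7 dpf and a pair that was higher, with the core letters in capitals and each written 5′ to 3′ along the gene. They lie at chrX:106186850-106187099 on the plus strand for *Pgk1*, chr11:120948817-120949066 on the plus strand for *Slc16a3*, chr7:138909507-138909756 on the minus strand for *Bnip3*, chr6:82774455-82774704 on the minus strand for *Hk2* and chr7:110627407-110627656 on the plus strand for *Adm*.
*Pgk1*: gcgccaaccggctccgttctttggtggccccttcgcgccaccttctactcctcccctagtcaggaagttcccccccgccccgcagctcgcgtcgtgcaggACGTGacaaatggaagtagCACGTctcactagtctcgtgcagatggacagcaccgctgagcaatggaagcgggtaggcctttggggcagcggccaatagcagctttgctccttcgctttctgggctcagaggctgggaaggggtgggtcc
*Slc16a3*: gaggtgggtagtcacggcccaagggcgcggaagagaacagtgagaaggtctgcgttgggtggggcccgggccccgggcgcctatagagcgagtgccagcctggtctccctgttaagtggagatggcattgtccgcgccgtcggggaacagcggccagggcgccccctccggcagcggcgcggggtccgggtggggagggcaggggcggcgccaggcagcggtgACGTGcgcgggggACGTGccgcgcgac
*Bnip3*: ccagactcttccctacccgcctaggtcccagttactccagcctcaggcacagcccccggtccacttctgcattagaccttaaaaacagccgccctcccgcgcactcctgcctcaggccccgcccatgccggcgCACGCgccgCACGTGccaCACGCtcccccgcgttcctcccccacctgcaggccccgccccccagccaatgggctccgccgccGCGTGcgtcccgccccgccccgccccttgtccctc
*Hk2*: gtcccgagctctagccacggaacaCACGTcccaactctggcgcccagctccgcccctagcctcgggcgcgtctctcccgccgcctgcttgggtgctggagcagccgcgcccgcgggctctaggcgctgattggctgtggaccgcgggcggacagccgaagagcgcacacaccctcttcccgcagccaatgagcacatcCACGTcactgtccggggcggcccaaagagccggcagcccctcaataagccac
*Adm*: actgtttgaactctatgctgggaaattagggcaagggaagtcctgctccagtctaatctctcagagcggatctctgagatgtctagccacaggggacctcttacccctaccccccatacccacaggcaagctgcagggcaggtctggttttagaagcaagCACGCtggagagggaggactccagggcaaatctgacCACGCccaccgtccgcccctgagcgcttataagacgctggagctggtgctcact
Among the genes shown, the core letters stood before those that were lower and before those that were higher. Of the lower genes not shown, *Aldoa*, *Tpi1*, *Pkm* and *Mif* held 0 matches in this stretch of their first listed window. The others held at least 1. *Pgk1*, *Slc16a3*, *Hk2* and *Adm* each held 2 matches in this stretch and *Bnip3* held 5.

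Cells within the limits of the paper's methods numbered 25479 of 34038 barcodes, between 4110 and 8223 per library, with a median of 16093.5 to 17631.5 UMIs per cell. They were clustered without any of the 34 genes, so that none of them defined a class, and of 21 clusters 19 were named by marker genes with the ending -like. Libraries shared at most 15 cell barcodes. UMIs were summed over the cells of a class or lineage and scaled to counts per 1000000 UMIs (CPM). The mesenchymal lineage joins fibroblast-like, fibroblast precursor-like, committed mesenchymal progenitor-like, cycling mesenchymal-like and chondrogenic-like cells, the myeloid lineage joins the macrophage-like classes, osteoclast-like cells and an unnamed cluster led by *Ifitm1* and *Ccr7*, and the endothelial lineage joins capillary and venular endothelial-like cells. The lineage markers were where the names put them, with *Cdh5* at 1006 to 1087 CPM in endothelial cells against 1.55 to 5.21 CPM in myeloid cells, *Prrx1* at 481 to 663 CPM in mesenchymal cells against 1.80 to 8.05 CPM in myeloid cells, and *Cd68* at 409 to 498 CPM in myeloid cells against 6.98 to 9.81 CPM in mesenchymal cells. Chondrogenic-like cells, in which *Ibsp* also led, were present at 7 dpf, with 257 cells in control and 134 in RA, and numbered 2 and 4 at 4 dpf. Osteoclast-like cells numbered 27 in RA at 7 dpf.

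The glycolytic enzymes were present in each class, and their summed level differed between classes. Osteoclast-like and *Arg1*-high macrophage-like cells had the highest sums, 5305 and 5209 CPM with the 4 libraries pooled, followed by neutrophil-like cells at 4558 CPM and cycling mesenchymal-like cells at 4277 CPM. Fibroblast-like, Schwann cell-like and tenocyte precursor-like cells had the lowest, at 1873, 1895 and 1960 CPM. In single libraries osteoclast-like cells ranged from 4118 to 5601 CPM and *Arg1*-high macrophage-like cells from 4318 to 5797 CPM, the latter being the higher in 3 of 4 libraries. The 3 low classes overlapped likewise, and fibroblast-like cells, at 1711 to 2167 CPM, were the lowest in control at 7 dpf, tenocyte precursor-like cells at 4 dpf and Schwann cell-like cells in RA at 7 dpf. Of the 4 highest classes, neutrophil-like and cycling mesenchymal-like cells had pooled sums of 12 cell cycle genes of 1733 and 1932 CPM. Those of osteoclast-like and *Arg1*-high macrophage-like cells were 1359 and 240 CPM.

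**Figure D1:**
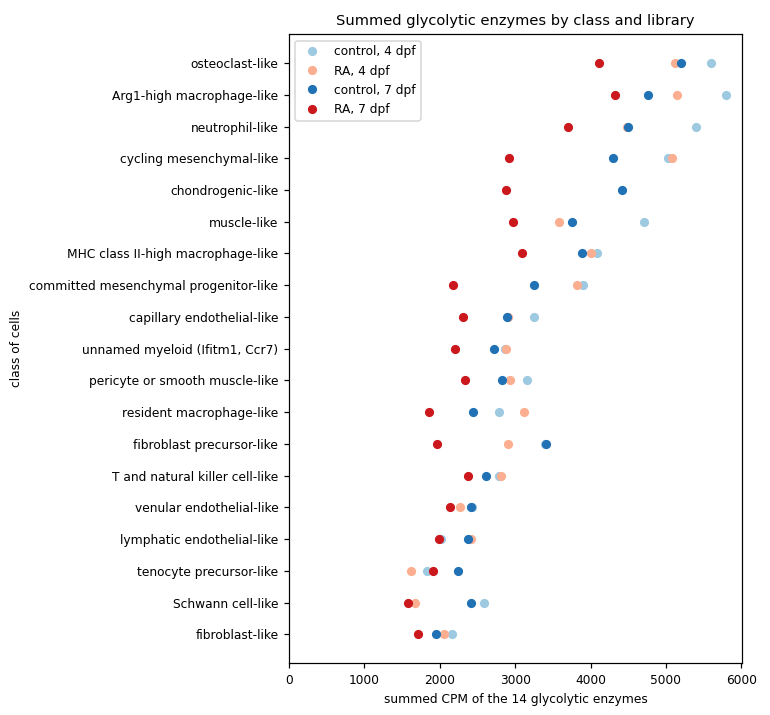
Summed level of the 14 glycolytic enzymes (CPM, linear axis from 0) in 19 classes of cells, with 1 point per library and classes ordered by their level over all libraries. The RA library at 7 dpf lies left of the control library at 7 dpf in each class, and osteoclast-like and *Arg1*-high macrophage-like cells lie farthest right.

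The classes below are ordered by their level with the libraries pooled, and the libraries in which another class stood higher are given. *Pgk1*, the enzyme of the first ATP-yielding step, was highest in *Arg1*-high macrophage-like cells, where it stood at 496 and 357 CPM in control and 476 and 326 CPM in RA at 4 and 7 dpf, with chondrogenic-like cells above them in control at 7 dpf (382 CPM). Over 70 points, each a class in a library, the genes most like *Pgk1* by Spearman's rank correlation of CPM were *Eno1* (rho 0.92), *Pgam1* (0.87), *Pkm* (0.86) and *Aldoa* (0.84), all enzymes of the same pathway. Those least like it were *Epas1* (−0.57) and *Adm* (−0.50), and *Mif*, a cytokine gene, stood at 0.73. The points share libraries and the same CPM total, so these are descriptions.

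Hexokinase, which traps glucose in the cell, was divided between its forms by cell type. *Hk2* was highest in fibroblast-like cells, with 268 CPM in control and 275 CPM in RA at 4 dpf and 168 and 238 CPM at 7 dpf, and in venular endothelial-like cells it stayed at 1.99 to 2.71 CPM. *Hk1* was at 93.5 to 115 CPM in those same venular endothelial-like cells, its highest pooled level, against 36.5 to 38.5 CPM in fibroblast-like cells. Lymphatic endothelial-like cells in control at 4 dpf (107 CPM) and muscle-like cells in RA at 7 dpf (132 CPM) stood above them. The ranges of fibroblast-like and venular endothelial-like cells did not overlap for either gene. Among the phosphofructokinase genes, which set the pace of the pathway, *Pfkp* was highest in T and natural killer cell-like cells at 161 to 220 CPM, *Pfkl* in chondrogenic-like cells at 48.3 to 55.6 CPM, and *Pfkm* was at most 11.4 CPM in any named class with the libraries pooled. *Gpi1*, the isomerase after hexokinase, was highest in neutrophil-like cells at 324 to 523 CPM, above the 219 to 296 CPM of *Arg1*-high macrophage-like cells.

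The oxygen-sensing genes also parted by cell type. *Hif1a* was broadly present, highest in committed mesenchymal progenitor-like cells at 456 to 595 CPM and lowest in Schwann cell-like cells at 109 CPM over the 4 libraries. *Epas1*, in contrast, was at 416 to 613 CPM in pericyte or smooth muscle-like cells and 364 to 456 CPM in capillary endothelial-like cells, but at 6.66 to 9.57 CPM in resident macrophage-like cells. *Egln3* was highest in lymphatic endothelial-like cells, at 34.9 to 74.3 CPM, with T and natural killer cell-like cells next at 11.6 to 17.8 CPM. *Egln1*, the main oxygen sensor of most cells, ranged from 34.7 to 76.8 CPM over the named classes with the libraries pooled.

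The hypoxia targets had no single site of high expression. Chondrogenic-like cells, present at 7 dpf, had the highest pooled *Mif* (965 CPM), *Higd1a*, a mitochondrial protein gene (490 CPM), *P4ha1* (317 CPM) and *P4ha2* (157 CPM), the prolyl 4-hydroxylases that ready collagen for folding, and *Ak4* (29.6 CPM). For *P4ha2*, fibroblast precursor-like cells stood highest in RA at 7 dpf, at 128 CPM. For *P4ha1*, *Higd1a* and *Ak4* the libraries of this class did not overlap those of the next class, cycling mesenchymal-like cells. *Adm*, which encodes the vessel-relaxing peptide adrenomedullin, was instead highest in lymphatic endothelial-like cells at 140 to 265 CPM, and MHC class II-high macrophage-like cells had 0.190 CPM. *Ndrg1*, a stress-response gene known for its part in myelin, was highest in Schwann cell-like cells at 347 to 490 CPM. *Ankrd37* and *Ddit4*, the latter an inhibitor of mTOR signalling, were highest in pericyte or smooth muscle-like cells at 60.4 to 69.3 CPM and 128 to 181 CPM. *Bnip3*, which directs mitochondria to autophagy, was highest in *Arg1*-high macrophage-like cells at 4 dpf, at 82.7 CPM in control and 64.2 CPM in RA. At 7 dpf chondrogenic-like cells stood above them, with 67.0 CPM against 59.4 CPM in control and 47.6 CPM against 34.3 CPM in RA.

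Transport and flux genes likewise differed between classes. *Slc16a1*, the second lactate carrier, was highest in fibroblast precursor-like cells in each library, at 62.5 to 105 CPM, and *Pfkfb3*, which makes the activator of phosphofructokinase, in resident macrophage-like cells, at 73.5 to 116 CPM. For the others the class on top changed with the library. *Slc16a3*, the lactate exporter of glycolytic cells, had its highest pooled level in MHC class II-high macrophage-like cells (111 CPM), but neutrophil-like cells stood above them in both control libraries (121 and 122 CPM) and *Arg1*-high macrophage-like cells in RA at 7 dpf (83.4 CPM). *Slc2a1*, the basal glucose transporter, was at 65.9 CPM in T and natural killer cell-like cells with the libraries pooled, and *Pfkfb4* at 73.6 CPM in neutrophil-like cells, each with another class above in 1 of the 4 libraries. *Pdk1*, which encodes a kinase that inhibits pyruvate dehydrogenase, had pooled levels of at most 27.6 CPM.

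**Figure D2:**
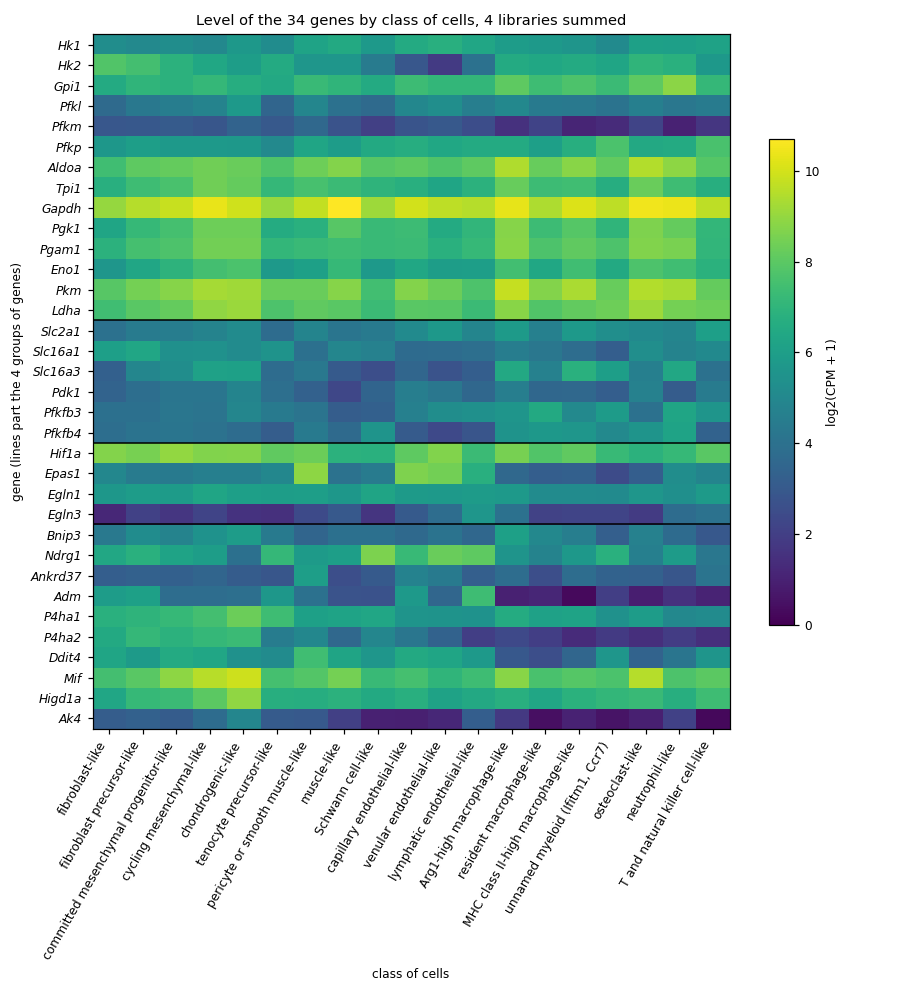
Level of each of the 34 genes (rows) in 19 classes of cells (columns) as log2(CPM + 1) over the summed UMIs of the 4 libraries, with lines between the groups of genes. Rows are read along, not against each other. *Hk2* is dark and *Epas1* bright in endothelial classes, and *Mif* and *Higd1a* are brightest in chondrogenic-like cells.

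At 4 dpf, the glycolytic enzymes differed little between RA and control callus. Ratios were taken as log2 of RA to control CPM with 1 CPM added to each, for genes with 50 or more UMIs in the pair of libraries together. A gene was counted as lower or higher from a difference of 0.5 on, or 1.41-fold. The interval beside a ratio is that of the counts without the added 1 CPM, so the ratio need not lie at its centre. In mesenchymal cells 0 of 14 enzymes were lower, beside 3.9% of all 13964 genes, and 0 were higher, beside 6.05%, with a median of −0.02. In myeloid cells the median was −0.06 and in endothelial cells −0.11, with 0 enzymes lower or higher in either, beside 3.01% lower and 2.35% higher of all genes in myeloid and 3.46% and 3.32% in endothelial cells. *Gapdh* was at 988 CPM in control and 986 CPM in RA mesenchymal cells.

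At 7 dpf the enzymes were lower in RA mesenchymal cells. Of the 14, 9 were lower, beside 7.55% of all 17087 genes, and 1 was higher, beside 6.23%, and the median was −0.67, beside −0.04 over all genes. The 9 were *Pgk1*, *Eno1*, *Ldha*, *Tpi1*, *Pfkl*, *Pgam1*, *Gapdh*, *Pkm* and *Aldoa*, and the 1 that was higher was *Hk2*. *Pgk1* was at 191 CPM in control and 210 CPM in RA at 4 dpf, and at 211 and 93.2 CPM at 7 dpf. The RA library at 7 dpf was thus the low one, and the 3 others lay close to each other, with a ratio of −1.17 at 7 dpf (interval −1.22 to −1.14). *Gapdh*, the abundant enzyme of the middle of the pathway, went from 891 CPM in control to 555 CPM in RA at 7 dpf (−0.68), and *Ldha*, which makes lactate, from 340 to 178 CPM (−0.93). *Eno1* had 123 and 59.5 CPM (−1.03), and its value carries an uncertainty because the near-identical copy *Eno1b* took 4287 UMIs beside 52675 for *Eno1*. The symbol *Aldoa* stands for a pair of gene entries, of which the one with 55 UMIs was left out beside 164973.

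In mesenchymal cells *Hk2* went the opposite way to the lower enzymes. It had 162 CPM in control and 193 CPM in RA mesenchymal cells at 4 dpf, and 118 and 187 CPM at 7 dpf, so that the control library at 7 dpf was the low one of the 4 (ratio 0.66, interval 0.62 to 0.70). Over 18 classes of all lineages its median ratio at 7 dpf was 0.03, with 9 classes below 0. By the limit used it was higher in 2 classes and lower in 1. The highest ratio was 0.64, in committed mesenchymal progenitor-like cells, and the lowest −0.66, in osteoclast-like cells. The ratio of the mesenchymal lineage was thus above that of each class. *Hk1*, *Pfkm* and *Pfkp* differed little at 7 dpf (−0.09, 0.02 and 0.04), and *Gpi1* was at −0.24.

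**Figure D3:**
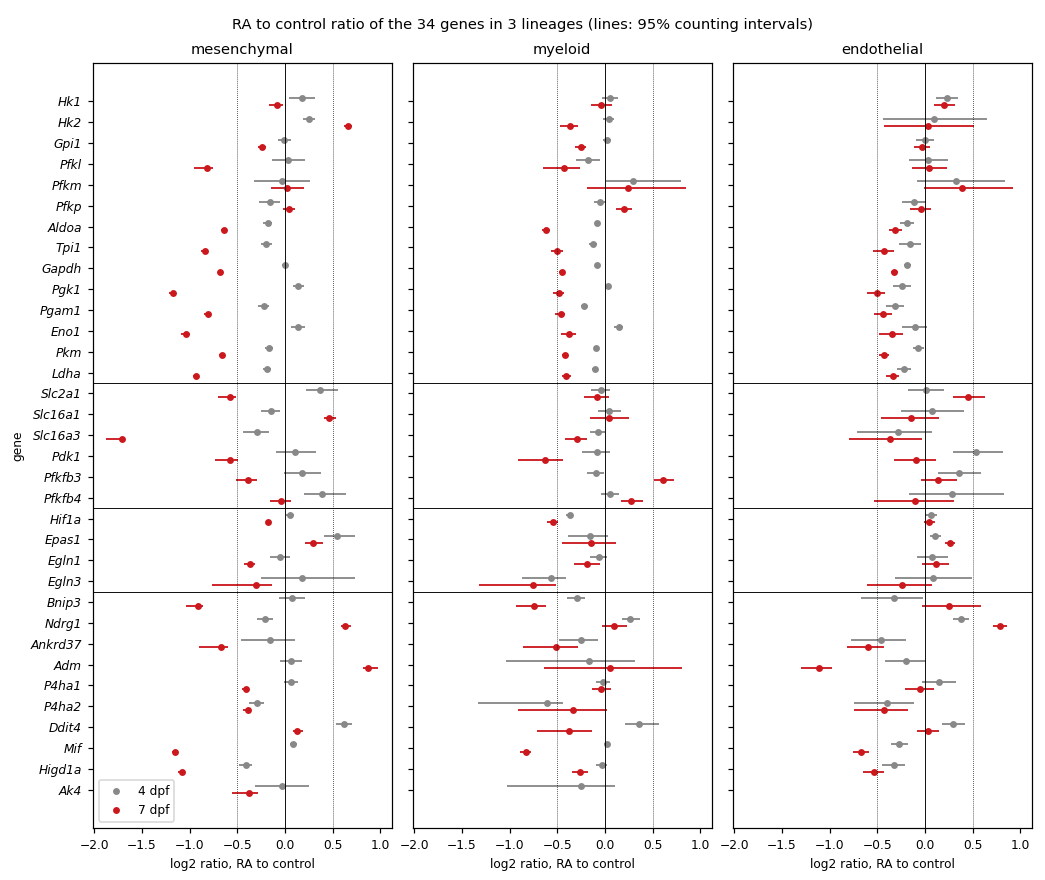
Log2 ratio of RA to control for each gene in mesenchymal, myeloid and endothelial cells, at 4 dpf (grey) and 7 dpf (red), with 95% counting intervals of the ratio taken without the added 1 CPM and dotted lines at ±0.5. Genes with under 50 UMIs have no point. Grey points lie mostly near 0, and red points of *Aldoa* to *Ldha* lie to the left in each lineage, farthest in mesenchymal cells.

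Of the transport and flux genes in mesenchymal cells, *Slc16a3* had the lowest ratio of the 34 genes. It was at 38.6 CPM in control and 31.2 CPM in RA at 4 dpf, and at 46.3 and 13.5 CPM at 7 dpf (−1.71, interval −1.88 to −1.69). *Slc16a1* had 68.9 and 62.0 CPM at 4 dpf and 45.0 and 62.5 CPM at 7 dpf (0.46, short of the limit used). Its low library was control at 7 dpf. At 7 dpf the ratios of the 2 lactate carriers thus had opposite directions. *Slc2a1* (24.7 and 16.2 CPM) and *Pdk1* (17.8 and 11.6 CPM) were lower, and *Pfkfb3* and *Pfkfb4* were at −0.38 and −0.05, which makes 3 of 6 lower, beside 7.55% of all genes, and 0 higher, beside 6.23%. Of the factors and hydroxylases 0 of 4 were lower or higher in these cells at 7 dpf, with *Hif1a* at 461 and 407 CPM (−0.18) and *Egln1* at 65.6 and 50.8 CPM (−0.36). At 4 dpf *Epas1* had 21.7 and 32.2 CPM (0.55), the 1 gene of the 4 that was higher, beside 6.05% of all genes.

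The hypoxia targets were divided in RA mesenchymal cells at 7 dpf. Of 10 targets, 4 were lower, beside 7.55% of all genes, and 2 higher, beside 6.23%, with a median of −0.40. The 4 were *Mif*, *Higd1a*, *Bnip3* and *Ankrd37*, and the 2 were *Adm* and *Ndrg1*. *Mif* had 429 and 456 CPM in control and RA at 4 dpf and 512 and 229 CPM at 7 dpf (−1.16), and *Bnip3* 35.3 and 37.1 CPM, then 36.9 and 19.1 CPM (−0.92). Both were low in the RA library at 7 dpf alone. *Higd1a* was already at 158 and 119 CPM at 4 dpf and then at 221 and 104 CPM (−1.08). *Adm* had 53.2 and 55.6 CPM at 4 dpf and 24.0 and 44.6 CPM at 7 dpf (0.87, interval 0.82 to 0.98), and *Ndrg1* 105 and 90.4 CPM, then 58.7 and 91.6 CPM (0.64). For *Adm* and *Ndrg1*, as for *Hk2*, the low library was control at 7 dpf. The prolyl 4-hydroxylases were at −0.41 (*P4ha1*) and −0.39 (*P4ha2*), *Ak4* at −0.38 and *Ddit4* at 0.13. *Ddit4* was the 1 of 10 targets that was higher at 4 dpf, with 79.1 and 122 CPM (0.61), beside 6.05% of all genes. At that time 0 of 10 were lower, beside 3.9%.

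**Figure D4:**
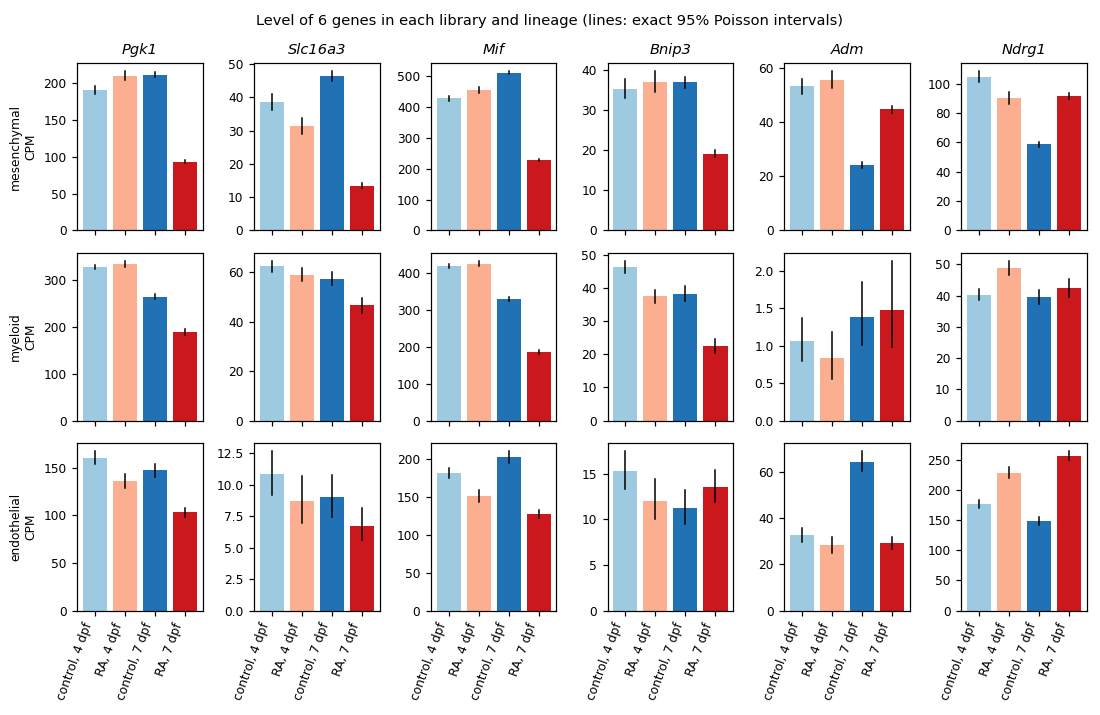
Level in CPM (linear axes from 0) of 6 genes in each library, by lineage, with exact 95% Poisson intervals. In mesenchymal cells *Pgk1*, *Slc16a3*, *Mif* and *Bnip3* are lowest in RA at 7 dpf, and *Adm* and *Ndrg1* are lowest in control at 7 dpf. *Adm* is highest in control at 7 dpf in endothelial cells.

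The 7 dpf ratio ranged in size over the mesenchymal classes. The enzyme median was −0.85 in fibroblast precursor-like cells, where 9 of 14 enzymes were lower beside 11.3% of all genes, and −0.60 in committed mesenchymal progenitor-like cells, with 9 lower beside 6.17%. In chondrogenic-like cells it was −0.58, with 9 lower beside 7.4%, and in cycling mesenchymal-like cells −0.59, with 8 of 13 lower beside 6.45%. In fibroblast-like cells the median was −0.23 and 1 enzyme was lower, beside 4.96%. The difference between these classes was not tested. *Slc16a3* followed the same order at the ends, with 58.6 CPM in control and 12.4 CPM in RA fibroblast precursor-like cells (−2.15) and 13.3 and 6.03 CPM in fibroblast-like cells (−1.03). *Bnip3* was at −1.60 in the former and −0.22 in the latter, and *Mif* at −1.23 and −0.37.

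*Hk2*, *Adm* and *Ndrg1* were spread otherwise over these classes. *Hk2* had 168 and 238 CPM in fibroblast-like cells at 7 dpf (0.50), *Adm* 38.9 and 59.5 CPM (0.60) in those cells and 43.7 and 69.9 CPM in fibroblast precursor-like cells (0.67), and *Ndrg1* 50.6 and 98.4 CPM in committed mesenchymal progenitor-like cells (0.95) but 103 and 105 CPM in fibroblast precursor-like cells. *Adm* was lower in RA chondrogenic-like cells, with 16.1 and 10.3 CPM (−0.59). The lineage was made up differently in the 2 libraries at 7 dpf, with 1468 fibroblast-like and 1045 committed mesenchymal progenitor-like cells in RA against 911 and 1141 in control. Fibroblast precursor-like cells, the class with the lowest enzyme median, numbered 958 in RA against 467 in control. Cycling mesenchymal-like cells numbered 82 in RA against 194 in control and chondrogenic-like cells 134 against 257, and the summed markers of chondrogenic and of osteogenic cells in the lineage were at 1904 and 565 CPM in RA against 4150 and 1474 CPM in control. With each class given the same weight the enzyme median was −0.61.

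In myeloid cells the enzyme median at 7 dpf was −0.41, beside −0.0023 over all genes, and 12 of 14 enzymes were below 0, but 1, *Aldoa*, was lower by the limit used, beside 4.61% of all 12789 genes. *Aldoa* had 554 and 524 CPM in control and RA at 4 dpf and 531 and 345 CPM at 7 dpf (−0.62, interval −0.66 to −0.58). No enzyme was higher, beside 6.01% of all genes. *Tpi1* (209 and 148 CPM) and *Pgk1* (264 and 189 CPM) came just short of the limit, at −0.50 and −0.48.

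Among the other myeloid genes, *Hif1a* itself was lower, with 279 and 216 CPM at 4 dpf and 282 and 193 CPM at 7 dpf (−0.37 and −0.55). *Egln3* was lower at both times, with 9.42 and 6.05 CPM (−0.56) at 4 dpf and 6.82 and 3.63 CPM (−0.76) at 7 dpf. At 4 dpf 1 of 10 hypoxia targets was lower, beside 3.01% of all genes, namely *P4ha2*, with 3.04 and 1.66 CPM (−0.60). *Mif* (330 and 186 CPM, −0.83), *Bnip3* (38.3 and 22.4 CPM, −0.75) and *Ankrd37* (11.2 and 7.53 CPM, −0.51) were lower at 7 dpf, which makes 3 of 9 hypoxia targets lower, beside 4.61% of all genes, and 0 higher, beside 6.01%, and *Pdk1* was at −0.63. *Pfkfb3* went the other way, with 53.6 and 50.02 CPM at 4 dpf and 48.2 and 74.2 CPM at 7 dpf (0.61). *Adm* was at 0.829 to 1.47 CPM in myeloid cells.

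The macrophage-like classes differed in these genes. In resident macrophage-like cells *Slc16a3* had 22.9 and 10.8 CPM at 7 dpf (−1.02), *Hif1a* 239 and 145 CPM (−0.71) and *Pfkfb3* 73.5 and 116 CPM (0.65). In *Arg1*-high macrophage-like cells *Slc16a3* had 79.6 and 83.4 CPM (0.07) and *Pfkfb3* 45.3 and 47.6 CPM (0.07), while *Hif1a* was at 394 and 283 CPM (−0.47) and *Bnip3* at 59.4 and 34.3 CPM (−0.78). The enzyme median was −0.40 in the former and −0.13 in the latter. The make-up of the lineage moved with the ratio. *Arg1*-high macrophage-like cells numbered 986 in control and 489 in RA at 7 dpf, and osteoclast-like cells 176 and 27. These were the classes with the highest pooled enzyme sums. Resident macrophage-like cells numbered 833 and 639. The median with equal weights for classes was −0.30.

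In endothelial cells the enzyme median at 7 dpf was −0.32, with 1 of 14 enzymes lower, *Pgk1* (147 and 103 CPM, −0.51), beside 6.12% of all 13075 genes, and 0 higher, beside 5.76%. The hypoxia targets were again divided, with 4 of 9 lower and 1 higher. *Adm* had 32.6 and 28.3 CPM in control and RA at 4 dpf and 64.6 and 29.4 CPM at 7 dpf (−1.11, interval −1.30 to −0.98), so that control at 7 dpf was the high library, where in mesenchymal cells it was the low one. *Mif* (203 and 127 CPM), *Ankrd37* (36.4 and 23.6 CPM) and *Higd1a* (115 and 79.1 CPM) were lower, at −0.67, −0.60 and −0.53. *Ndrg1* was higher, with 177 and 229 CPM at 4 dpf and 149 and 257 CPM at 7 dpf (0.37 and 0.78). *Epas1*, the factor subunit typical of endothelium, had 348 and 419 CPM at 7 dpf (0.26) and *Slc2a1* 33.8 and 46.6 CPM (0.45), and *Hif1a* stayed at 310 to 332 CPM in the 4 libraries. *Pdk1* was the 1 transport or flux gene that was higher at 4 dpf, with 16.6 and 24.5 CPM (0.53), beside 3.32% of all genes.

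Venular endothelial-like cells numbered 549 in RA against 283 in control at 7 dpf and capillary endothelial-like cells 562 against 551, and the 4 venular markers summed to 1390 CPM against 654 CPM. With equal weights for both classes the enzyme median was −0.27. Within the endothelium, *Adm* lay mainly in capillary endothelial-like cells, with 85.3 and 44.6 CPM in control and RA at 7 dpf (−0.92), against 14.2 and 9.97 CPM in venular endothelial-like cells (−0.47). Lymphatic endothelial-like cells, which were not summed with them, had 140 and 142 CPM (0.02). *Ndrg1* was higher in both blood endothelial classes, at 118 and 192 CPM in capillary (0.70) and 224 and 339 CPM in venular endothelial-like cells (0.60).

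Over all classes that had 20 or more cells in each library at 7 dpf, the enzyme median was below 0 in 19 of 19, from −0.85 in fibroblast precursor-like cells to −0.08 in T and natural killer cell-like cells, and at 4 dpf it was below 0 in 13 of 18. *Aldoa*, *Gapdh*, *Pgam1*, *Pkm*, *Ldha* and *Mif* were each below 0 in 19 of 19 classes at 7 dpf. The summed enzymes were lower in RA in each of the 19 classes, with RA to control ratios of 0.575 to 0.906, and RA at 7 dpf was the lowest library in 17 of the 18 classes present in 4 libraries, tenocyte precursor-like cells being the exception. The median over all genes ranged from −0.10 to 0.05 in these classes at 7 dpf. Lower sums in RA than in control at 7 dpf were not particular to the enzymes. Summed oxidative phosphorylation genes were also lower in 19 of 19 classes (ratios 0.615 to 0.978), and summed other glycolysis genes in 17 of 19. For each of these 2 lists, however, RA at 7 dpf was the lowest library in only 8 of 18 classes. The oxidative phosphorylation sum was already lower in RA at 4 dpf in 16 of 18 classes, and the enzyme sum in 13 of 18. All classes of a time point come from the same pair of libraries, so these counts are not independent. The hypoxia target median was below 0 in 18 of 19 classes and the transport and flux median in 14 of 19. *Ndrg1* was above 0 in 15 of 19 classes, with the exceptions including T and natural killer cell-like cells at −0.41. *Epas1* ranged from −0.27 in neutrophil-like cells to 1.64 in muscle-like cells, where it had 8.35 and 28.1 CPM.

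**Figure D5:**
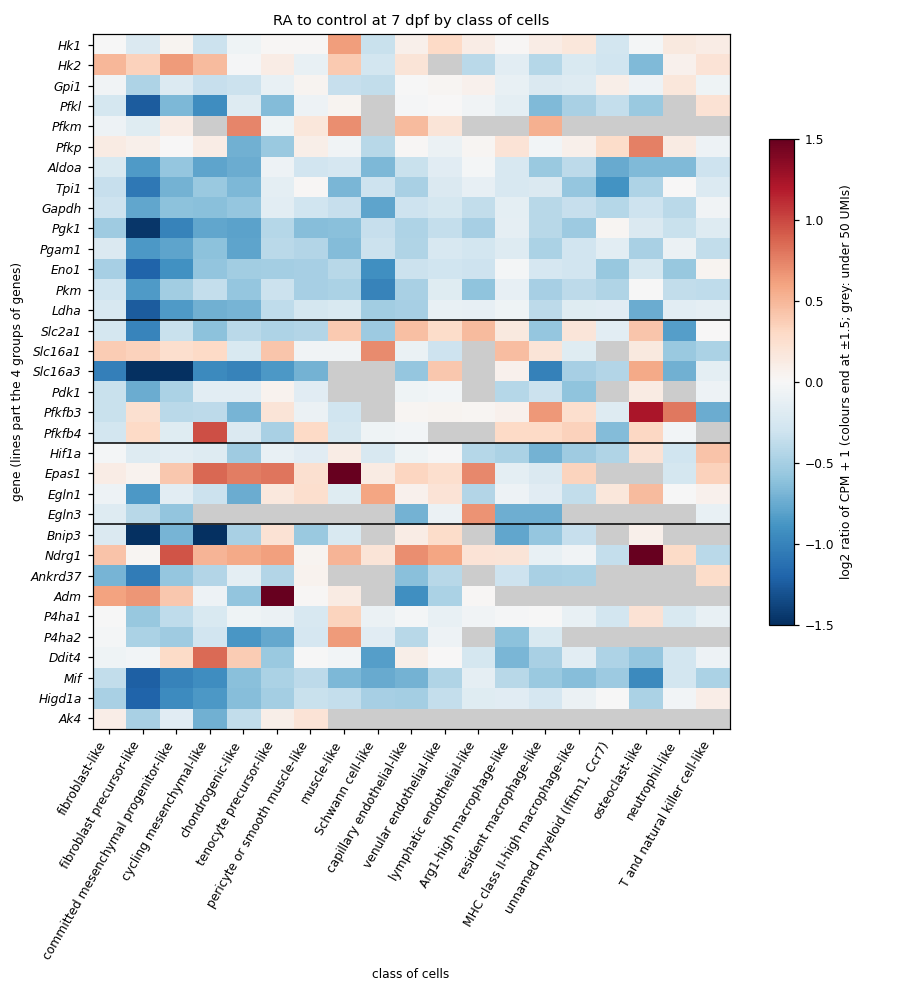
Log2 ratio of RA to control at 7 dpf for each gene (rows) in 19 classes (columns), with colours ending at ±1.5 and grey for genes with under 50 UMIs or without a value. Blue (lower in RA) fills all or most of the rows from *Aldoa* to *Ldha* and *Mif*. It is deepest in fibroblast precursor-like cells, except for *Gapdh* and *Pkm*, where it is deepest in Schwann cell-like cells. Blue gives way to red in most of the rows of *Ndrg1* and *Epas1*.

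The change from 4 to 7 dpf was also taken within each condition. These changes share the 7 dpf libraries with the ratios above and are not further evidence for them. In control mesenchymal cells the enzyme median was −0.08, with 0 of 14 lower (beside 5.51% of all genes) and 0 higher (beside 8.54%), and in RA mesenchymal cells it was −0.59, with 8 lower (beside 6.06%) and 0 higher (beside 7.13%). Under a looser cell filter these medians were −0.39 and −0.96. *Pgk1* changed by 0.14 in control and by −1.16 in RA, and *Hk2* by −0.45 and −0.05. Among the hypoxia targets 2 of 10 were lower at 7 dpf in control mesenchymal cells, *Adm* (−1.12) and *Ndrg1* (−0.83), and 3 in RA, *Mif* (−0.99), *Bnip3* (−0.92) and *Ddit4* (−0.72).

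In control myeloid cells the enzyme median over time was −0.18, with 0 lower (beside 2.77%) and 0 higher (beside 3.77%), and in RA myeloid cells −0.49, with 7 lower (beside 10.8%) and 0 higher (beside 10.8%). *Mif* changed by −0.34 in control and −1.20 in RA. In control endothelial cells the median was −0.09, with 0 enzymes lower (beside 2.82%) and 0 higher (beside 5.45%), and in RA −0.24, with 0 lower (beside 3.83%) and 0 higher (beside 6.51%). Under the looser filter the endothelial medians were −0.19 and −0.34. *Adm* and *Ankrd37* were higher at 7 than at 4 dpf in control endothelial cells (0.97 and 0.80), and *Ankrd37* was so in RA (0.65), where *Adm* changed by 0.05.

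Other genes of the same pathways, listed by name, had medians nearer to 0 at 7 dpf. Of 24 other glycolysis genes measured in mesenchymal cells 2 were lower and 0 higher in RA (median −0.16), and of 34 other hypoxia genes 9 were lower and 2 higher (median −0.12), beside 7.55% of all genes lower and 6.23% higher, so that the share of the glycolysis genes was near that of all genes. Among the hypoxia genes with the largest ratios there were *Fam162a*, a mitochondrial protein gene (143 and 73.3 CPM, −0.96), and *Plod2*, a collagen lysyl hydroxylase (351 and 214 CPM, −0.71). Others were *Angptl4*, which inhibits lipoprotein lipase (120 and 173 CPM, 0.53), and *Ndufa4l2*, also a mitochondrial protein gene (70.9 and 49.6 CPM, −0.51). In endothelial cells 3 of 28 other hypoxia genes were lower and 4 higher, beside 6.12% and 5.76% of all genes, led by *Apln*, the ligand apelin (119 and 47.4 CPM, −1.31), with *Rora* (70.2 and 127 CPM, 0.84) and *Angptl4* (63.5 and 108 CPM, 0.76) higher. In myeloid cells *Hmox1*, which breaks down heme, had the largest ratio of the other hypoxia genes, with 1856 and 727 CPM (−1.35), and 2 of 27 were lower and 2 higher, beside 4.61% and 6.01% of all genes.

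Further measures moved with the low enzymes of RA callus at 7 dpf. Of 30 oxidative phosphorylation genes, 30 were below 0 in mesenchymal cells with 6 lower by the limit used (median −0.36), 30 in myeloid cells with 3 lower (−0.33) and 27 in endothelial cells with 1 lower (−0.31). All genes lower by that limit made up 7.55%, 4.61% and 6.12% in these lineages. Of 12 cell cycle genes 10 were lower in mesenchymal cells (−0.90), 11 in myeloid cells (−0.97) and 11 in endothelial cells (−1.15). With cycling mesenchymal-like cells left out, an alternative chosen after seeing the data, the mesenchymal enzyme median was −0.65. *Malat1*, a nuclear RNA, was at 15791 CPM in RA against 11580.3 CPM in control mesenchymal cells, 12039.5 against 9810.32 CPM in myeloid and 17241 against 13732 CPM in endothelial cells. The mitochondrial share was 2.25% and 2.61% in mesenchymal cells, in that order. In mesenchymal cells 4 of 12 genes of dissociation stress were higher and 0 lower (median 0.36), as were 4 of 7 glucocorticoid response genes (0.59), beside 6.23% of all genes higher. Higher sums of these 2 lists were not confined to mesenchymal cells. The glucocorticoid response sum was lower in RA at 7 dpf in 0 of 19 classes (ratios 1.01 to 2.09). The dissociation stress sum was lower in 2 of 19 (ratios 0.958 to 1.31). The 7 macrophage markers summed to 206 CPM in RA and 276 CPM in control mesenchymal cells, against 9689 to 17512 CPM in myeloid cells. The part of these measures in the ratios was not tested.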

How the data were processed

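Callus cells of 4 groups were measured by scRNA-seq (Chromium Single Cell 3′ v3.1), with 1 library per group. The authors made the deposited tables with Cell Ranger 7.0.1 on mm10, as raw UMI counts per gene and barcode without normalization. The annotation release and the use of intronic reads are not given in the sources used here. Near-identical copies can split or lose reads in such counting.

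Cells were kept with 4000 to 50000 UMIs, 2000 to 7000 features and at most 8% mitochondrial UMIs. The 4 libraries were integrated in Seurat 5.3.0 (R 4.3.3) with 2000 variable genes, 30 dimensions and 15 principal components, and clustered at a resolution of 0.5. The 34 genes and the other glycolysis and hypoxia genes were left out of the variable genes. Name thresholds were set after the clusters were seen, and rebuilt names need not match the study's. An unnamed cluster of which 56.6% were called doublets by Scrublet in scanpy 1.11.5 was left out of lineages, and other doublets stayed in. CPM, exact Poisson intervals and exact conditional intervals of count ratios were computed in Python 3.11.15 with scipy 1.17.1. The ratio calculation was tested on simulated data for mesenchymal cells at 7 dpf over 17087 genes, where 200 of 200 changed genes came out in the right direction and 124 within 0.25 of their true log2 change. The kept cells held 83405494 to 156567619 UMIs per library.

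The 34 genes and all lists were chosen with earlier results of these data known, from general knowledge. Named genes were the 34, the 5 largest ratios at 7 dpf per lineage of the other pathway genes with at least 50 CPM, class markers, and the leading genes of lists. *Malat1*, *Ibsp*, *Ifitm1* and *Ccr7* were named after their values were seen. Some of the genes the rule names are not printed. Promoter sequences are from RefSeq, and annotation from GENCODE M21 matched 34 of 34 genes. Alternatives were another pseudocount, UMI minimum, scaling, cell filter, resolution and integration, doublets left out, equal class weights, and the genes kept in the clustering. Others left out the cycling mesenchymal-like or the osteoclast-like cells.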

Additional observations from a re-analysis of the deposited data

Results flagged for a closer look

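*Adm* differed in opposite directions in mesenchymal and endothelial cells of the same libraries. Its RA to control ratio at 7 dpf was 0.87 on the log2 scale in mesenchymal cells and −1.11 in endothelial cells, and its change from 4 to 7 dpf in control was −1.12 in mesenchymal cells and 0.97 in endothelial cells. Both pairs rest on the control library at 7 dpf, which had the lowest *Adm* of the 4 in mesenchymal cells and the highest in endothelial cells. Both lineage ratios at 7 dpf were farther from 0 than those of the classes within them. The strongest endothelial class was capillary endothelial-like cells at −0.92. In the mesenchymal lineage, chondrogenic-like cells went the other way from the fibroblast-like and fibroblast precursor-like cells. The make-up of both lineages differed between the libraries, and its part in the ratios was not tested. The difference between the lineages was not tested, since each condition had 1 library.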

How the results depend on the processing

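The medians of the RA to control ratios at 7 dpf stayed below 0 under each alternative run, from −0.69 to −0.61 for the enzymes in mesenchymal cells, −0.45 to −0.30 in myeloid and −0.33 to −0.27 in endothelial cells, and from −0.42 to −0.34, −0.39 to −0.20 and −0.53 to −0.25 for the hypoxia targets. A looser cell filter moved 4 medians of the change from 4 to 7 dpf for the glycolytic enzymes, to −0.39 in control and −0.96 in RA mesenchymal cells and to −0.19 and −0.34 in control and RA endothelial cells. The cause was not tested. Target medians near 0 changed sign, at 4 dpf in mesenchymal cells from 0.02 to between −0.08 and −0.02 (TMM scaling, looser filter, cycling cells left out), and over time in control from 0.16 to −0.18 in mesenchymal and 0.15 to −0.03 in endothelial cells (looser filter), over time in RA endothelial cells from 0.04 to −0.01 (TMM scaling) and −0.15 (looser filter), and over time in control myeloid cells from −0.01 to 0.0044 (resolution 1). For single genes 433 values moved by more than their counting interval, 4340 did not and 0 were reversed. No paired analysis was possible because each group has 1 library, and for the same reason no replicate could be left out. Counting depth limits myeloid *Adm*, and *Ak4*, *Egln3* and *Pfkm* in most classes, with medians of 3.19, 3.62 and 5.80 CPM over the named classes. *Ak4* reached 29.6 CPM in chondrogenic-like cells and *Egln3* 48.4 CPM in lymphatic endothelial-like cells.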
